A study of Mus musculus with 19 samples.

Results

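The genes described here encode the core subunits and accessory factors of Polycomb repressive complex 2 (PRC2): Ezh2, Ezh1, Eed, Suz12, Rbbp4, Rbbp7, Jarid2, Aebp2, Phf19 and Mtf2. They were taken by symbol from the authors' annotated table, and each had a row in the deposited read count table, so that 10 of 55416 genes are followed across 19 hippocampal libraries.

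PRC2 places methyl groups on lysine residues in the tail of histone H3, and the trimethylated mark goes with repressed chromatin at developmental and cell identity genes. Ezh2 or its paralog Ezh1 carries the catalytic SET domain, Eed binds the mark and stimulates the enzyme, Suz12 is the scaffold, and Rbbp4 or Rbbp7 binds histones. Accessory factors define alternative forms of the complex: a Polycomb-like protein such as Phf19 or Mtf2 in one, Jarid2 with Aebp2 in the other. Ezh2 is known for high expression in dividing cells, and Ezh1 for expression in cells that have left the cell cycle, neurons included.

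Total RNA of the labelled right hippocampus ("R. Hippocampus") of C57BL6 mice was depleted of ribosomal RNA and sequenced. Tissue was collected 4 days after intraperitoneal saline or after status epilepticus brought on with repeated low doses of kainate, an agonist of a class of glutamate receptors. WT mice were EZH2(+/+);Syn1Cre(+/-) and EZH2nHom mice were EZH2(-/-);Syn1Cre(+/-), so all 4 groups carried Cre: WT saline (5 libraries), WT kainate (5), EZH2nHom saline (5) and EZH2nHom kainate (4). Synapsin1-Cre acts in neurons, while the libraries hold RNA of every cell in the tissue, glia and vessels included, and a count over the whole Ezh2 gene does not check the deletion. Ages are not given in the sources used here. Nothing in the labels states that libraries of a group came from separate animals, so the p-values measure the spread between these libraries, part of which may be technical.

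Total reads ran from 24496685 to 43948317 per library. Neuron markers, among them Snap25, Syt1 and Rbfox3, summed to between 4227.8 and 6855.0 CPM (read counts scaled to library size) in every library, so the defining markers of neurons were present. Choroid plexus markers ran from 14.16 to 3941.5 CPM and varied widely within every group. Their sums reached 3941.5 in WT saline and 3690.7 in EZH2nHom saline, but 1153.6 in WT kainate and 679.0 in EZH2nHom kainate. The groups overlapped, and 1 of the 5 markers fell in the averaged kainate response. Hardly any reads came from Y-linked genes in 5 libraries (WT saline replicates 1 and 2, WT kainate replicates 1 and 2, EZH2nHom kainate replicate 1), so the groups differ in their mix of sexes. Structural RNAs took 0.0613% to 0.0902% of reads in WT saline and 0.218% to 0.763% in EZH2nHom saline, without overlap. In WT kainate they took 0.0709% in replicate 1 and 0.17% to 0.218% in replicates 2 to 5, above every WT saline library. In EZH2nHom kainate they took 0.195% to 0.776%. Code prefixes in the labels, whose meaning is not stated there, were never shared between the genotypes, so genotype and prefix cannot be told apart. The library EZH2nHom kainate replicate 2 stood apart for many of the 10 genes, and results that rest on it are given with and without it.

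Promoter sequence is shown for Phf19 and Ezh1, the members with the largest rise and the largest fall that passed after kainate. Each is the stretch from 250 to 51 bases before the RefSeq start, on the gene's strand, in GRCm38.p6 (the deposited counts were made on mm39, whose genome was not used here). Capitals mark a match to the E2F consensus, searched on both strands as the octamers TTTCCCGC, TTTCGCGC, TTTGCCGC and TTTGGCGC. E2F factors are known regulators of cell cycle genes.
Phf19 (chr2:34914027-34914226, minus strand): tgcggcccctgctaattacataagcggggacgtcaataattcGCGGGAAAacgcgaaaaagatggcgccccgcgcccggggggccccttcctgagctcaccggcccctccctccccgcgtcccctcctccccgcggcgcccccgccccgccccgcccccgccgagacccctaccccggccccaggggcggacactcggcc
Ezh1 (chr11:101226514-101226713, minus strand): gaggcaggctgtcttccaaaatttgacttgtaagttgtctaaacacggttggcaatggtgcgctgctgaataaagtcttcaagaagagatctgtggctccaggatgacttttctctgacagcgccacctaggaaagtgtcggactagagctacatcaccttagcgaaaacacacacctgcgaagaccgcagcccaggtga
Of the 10 members, all with an entry in the RefSeq promoter table, 3 held one of the octamers in the window from 250 bases before to 50 bases after the start. In Phf19 it lies on the opposite strand, which is why the capitals read as the reverse complement of TTTCCCGC, and begins 208 bases before the start. The other matches are shown with their surrounding bases.
Ezh2 (chr6:47595009-47595038, minus strand): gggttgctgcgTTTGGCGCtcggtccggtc
Suz12 (chr11:79992876-79992905, plus strand): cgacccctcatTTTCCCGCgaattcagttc
The Ezh2 match begins 3 bases after the start and the Suz12 match 219 bases before it. Across all 32851 windows of this length in the table, 744 (2.26%) held at least 1 of the 4 octamers, against 3 of the 14 windows of the 10 members, since some genes have several starts. The 200 bases shown were 74.5% G or C for Phf19 and 49.5% for Ezh1. A match describes the letters only, and neither a match nor its absence tells whether a factor binds there.

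Compared on a per-length scale, the 10 genes spanned a wide range of levels. In WT saline libraries Rbbp7 had the highest level, at 37.9 ± 1.66 CPM per kilobase of exon (SD, n = 5), followed by Rbbp4 at 12.4 ± 0.511. Ezh1 (8.69 ± 0.303) and Suz12 (8.23 ± 0.504) came next and overlapped between libraries, as did Mtf2 (6.75 ± 0.239) and Aebp2 (6 ± 0.368). Jarid2 (2.93 ± 0.189) and Eed (2.66 ± 0.121) overlapped as well, Ezh2 lay below them at 1.68 ± 0.175, and Phf19 was lowest at 0.182 ± 0.024. In this tissue the paralog linked to resting cells, Ezh1, was thus above Ezh2 in level per length, and Mtf2 was above Phf19. All other levels below are CPM of a single gene, scaled for library composition, and are compared only between libraries.

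**Figure D1:**
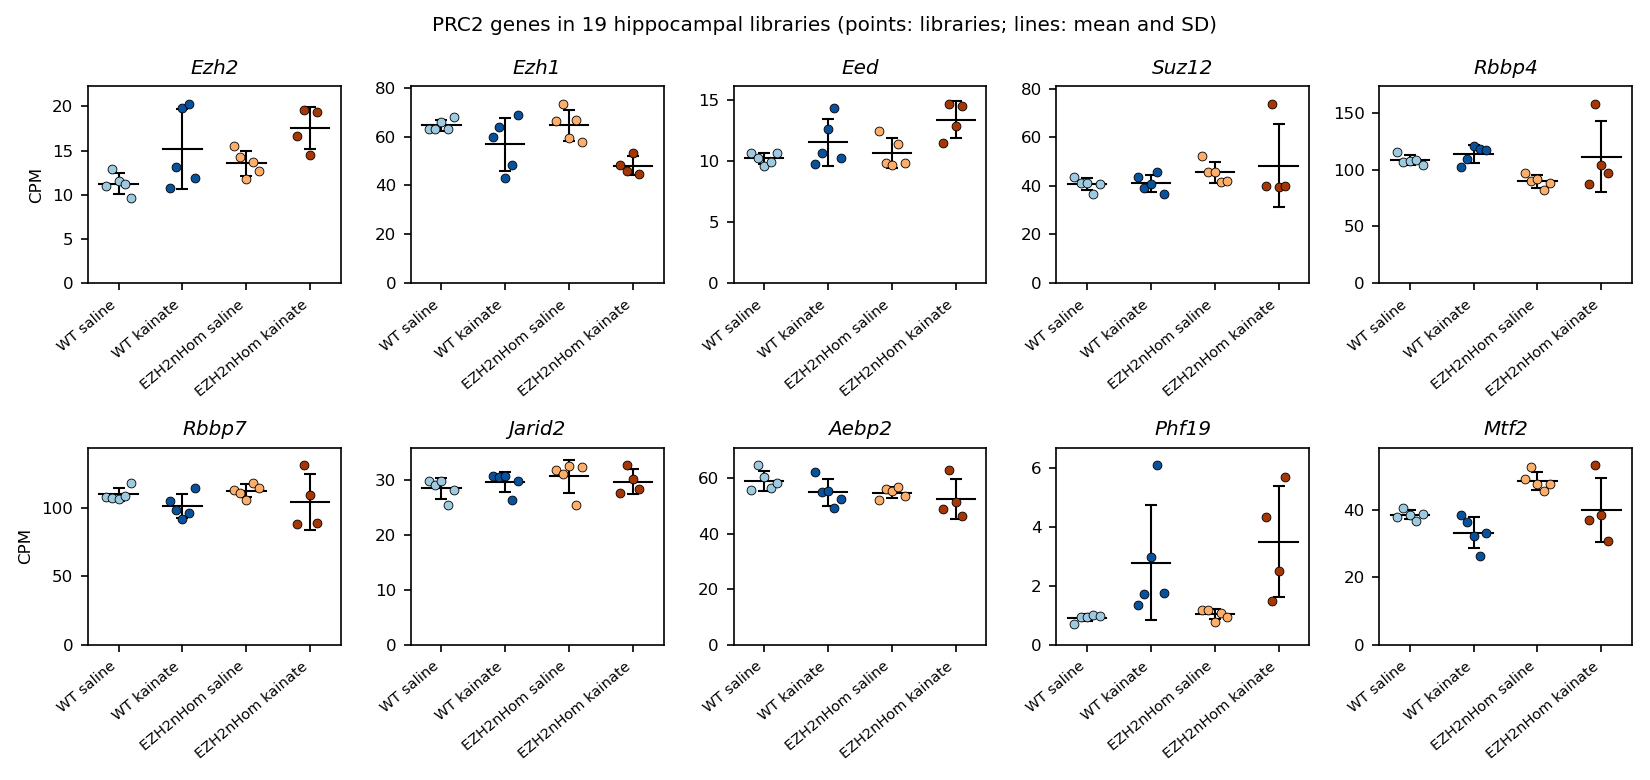
Level of each PRC2 gene in every library. The vertical axes give CPM on a linear scale that starts at 0, each point is 1 library, and the bar and whiskers give the group mean ± SD (n = 5, 5, 5 and 4). Phf19 was higher in every kainate library than in every saline library of its genotype, and EZH2nHom kainate replicate 2 is the topmost point for Suz12, Rbbp4 and Rbbp7.

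Tests used edgeR's quasi-likelihood model over all 19 libraries, with Benjamini-Hochberg adjustment over the 19234 genes tested and a threshold of 0.05, and all 10 members passed the filter on low counts. In the WT response to kainate 1 of 10 members rose (Phf19) and 0 fell, beside 9.47% of all genes that rose and 2.57% that fell. In the EZH2nHom response 1 of 10 rose (Phf19) and 1 fell (Ezh1), beside 14.3% and 11.8% of all genes. These shares are near the background, so the number of PRC2 genes that responded was not a result about this complex. The median log2 change of the 10 genes was 0.04 in WT and 0.02 in EZH2nHom, and that of all genes -0.02 in each.

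No member passed between the genotypes within either treatment. After saline 0 of 10 passed by edgeR (2 at an unadjusted p under 0.05, and 0 by DESeq2's Wald test), beside 13.5% of all genes. After kainate 0 of 10 passed (2 unadjusted, 0 by DESeq2), beside 7.61% of all genes. For the difference between the kainate responses of the genotypes 0 of 10 passed by edgeR (0 unadjusted, 0 by DESeq2), beside 0% of all genes (8.76% unadjusted). Non-overlap of libraries gave a similar picture: 1 of 10 members (Phf19) was higher in every WT kainate than in every WT saline library, beside 14.4% of genes that did not overlap in either direction. In EZH2nHom 2 of 10 (Phf19 and Ezh1) did not overlap, beside 19.2%, after saline 2 of 10 (Mtf2 and Rbbp4) did not overlap between the genotypes, beside 21.3%, and after kainate 0 of 10, beside 7.26%.

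Averages over the other factor used all 4 groups and were added after the data had been seen. In the kainate response averaged over the genotypes 3 of 10 members rose (Ezh2, Eed and Phf19), beside 17.7% of all genes, and 2 fell (Ezh1 and Mtf2), beside 14.4%. For the genotype difference averaged over the treatments 1 of 10 passed (Mtf2, higher in EZH2nHom), beside 21.9%. These comparisons share their libraries with the ones above, so they are not further evidence but the same values at a higher precision.

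**Figure D2:**
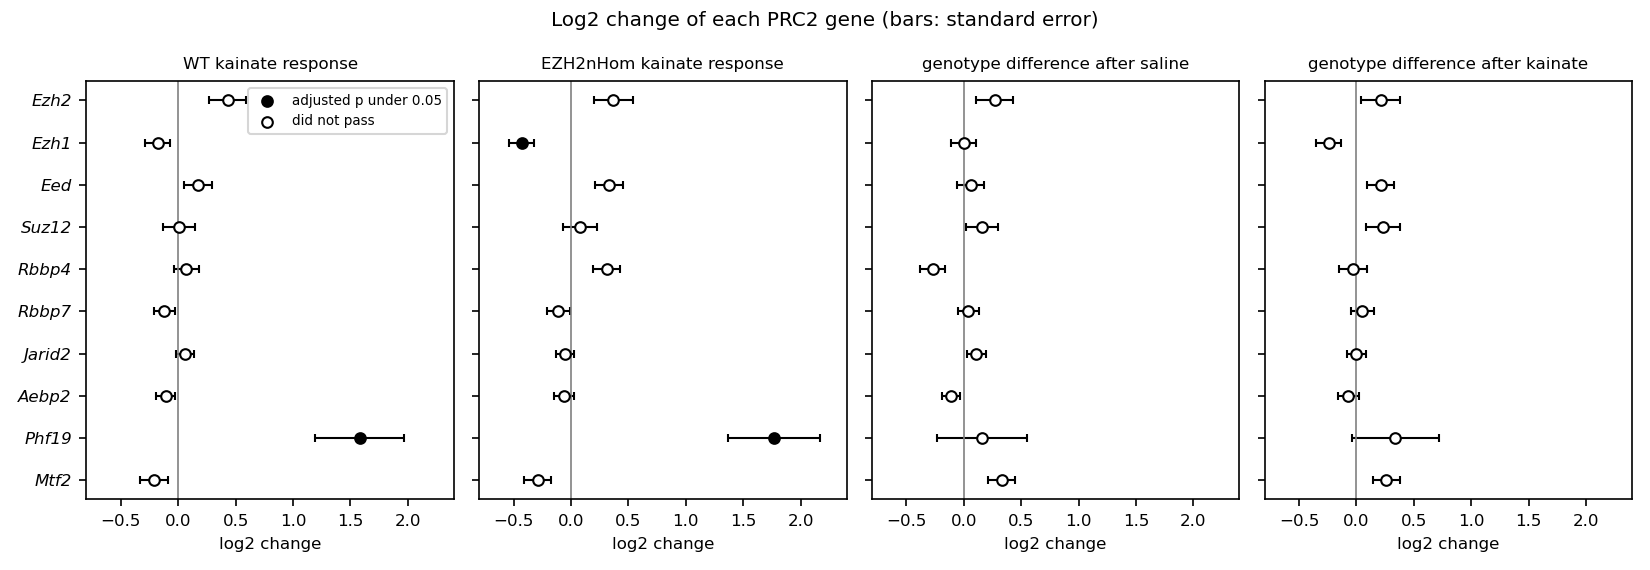
Log2 change of each PRC2 gene in the kainate and genotype comparisons. Points are edgeR estimates, bars their standard errors, filled points passed at an adjusted p under 0.05, and the vertical line marks no change. Phf19 lies farthest from 0 in both kainate responses (1.58 and 1.77), and every other estimate lies between -0.43 and 0.43.

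Of the catalytic subunits, Ezh2 was higher after kainate and its count was no lower in the neuronal knockout. Ezh2 (ENSMUSG00000029687, chr6:47530139-47595341 on the minus strand of GRCm38) stood at 10.99, 12.9, 11.5, 11.2 and 9.61 CPM in WT saline replicates 1 to 5. In WT kainate it stood at 10.8, 13.2, 19.8, 20.3 and 11.9 CPM. Only WT kainate replicates 2, 3 and 4 exceeded every WT saline library, and replicates 3 and 4 carried most of the difference. In EZH2nHom saline its values were 15.5, 14.3, 11.8, 13.7 and 12.7 CPM, and in EZH2nHom kainate 16.7, 19.6, 14.6 and 19.4. The groups overlapped in every comparison, by a single library in EZH2nHom. Averaged over genotypes the log2 change of Ezh2 was a rise of 0.40 ± 0.12 SE (edgeR, adjusted p = 0.0121). In WT alone the change was 0.43 ± 0.16 (adjusted p = 0.0906) and in EZH2nHom alone 0.37 ± 0.17 (adjusted p = 0.112), and neither passed. The WT value passed in 2 of 30 alternatives, without WT kainate replicate 1 or 5, at 0.51 (adjusted p = 0.025 by edgeR) and 0.50 (adjusted p = 0.0477). Over all 30 it ran from 0.24 to 0.51, with adjusted p up to 0.69 among the edgeR and DESeq2 fits. The EZH2nHom value passed in 2 of 29 alternatives and ran from 0.31 to 0.45.

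Read counts of the targeted gene were no lower in the knockout libraries. Ezh2 averaged 13.6 ± 1.42 CPM (SD, n = 5) in EZH2nHom saline and 11.2 ± 1.17 (n = 5) in WT saline, a log2 difference of 0.27 ± 0.16 that did not pass (adjusted p = 0.288 by edgeR). After kainate the averages were 17.5 ± 2.39 (n = 4) and 15.2 ± 4.53 (n = 5), a difference of 0.21 ± 0.17 (adjusted p = 0.473). Reads from undeleted exons and from cells without Cre enter this count alike. In bulk tissue, a change in how many cells of a type are present and a change in RNA per cell cannot be told apart, here or for any gene below.

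Ezh1 moved the other way. Ezh1 (ENSMUSG00000006920, chr11:101191115-101226463, minus strand) stood at 63.1, 63.0, 66.1, 63.2 and 68.0 CPM in WT saline and at 60.0, 64.0, 43.2, 48.3 and 68.9 CPM in WT kainate. The low WT kainate libraries, replicates 3 and 4, are those with high Ezh2, and the other 3 lay near or within the saline range. In EZH2nHom saline it stood at 66.5, 73.4, 59.3, 66.7 and 57.6 CPM, and in EZH2nHom kainate at 48.3, 45.9, 53.5 and 44.8. Every EZH2nHom kainate library lay below every EZH2nHom saline library. Ezh1 fell by 0.43 ± 0.11 on the log2 scale in EZH2nHom (adjusted p = 0.00892 by edgeR), while the WT change of -0.18 ± 0.11 did not pass (adjusted p = 0.301). The difference of these responses, -0.24 ± 0.15, did not pass either (adjusted p = 0.663), so a genotype-specific fall was not shown. Averaged over genotypes the change was -0.31 ± 0.08 (adjusted p = 0.0049).

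The balance of the catalytic paralogs was followed as the log2 ratio of Ezh2 to Ezh1 CPM within each library, given as a description without a test. Ratios here are not corrected for gene length and are compared only between libraries. This one averaged -2.53 ± 0.19 (SD, n = 5) in WT saline and -1.94 ± 0.69 (n = 5) in WT kainate, where the groups overlapped. WT kainate replicates 3 and 4 stood at -1.13 and -1.25. Replicates 1, 2 and 5 stood at -2.48, -2.28 and -2.54, within or at the edge of the WT saline range of -2.82 to -2.29. It averaged -2.25 ± 0.11 (n = 5) in EZH2nHom saline and -1.46 ± 0.31 (n = 4) in EZH2nHom kainate, where every kainate library was above every saline library. On a linear scale the mean ratio was 0.21 in EZH2nHom saline and 0.363 in EZH2nHom kainate.

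**Figure D3:**
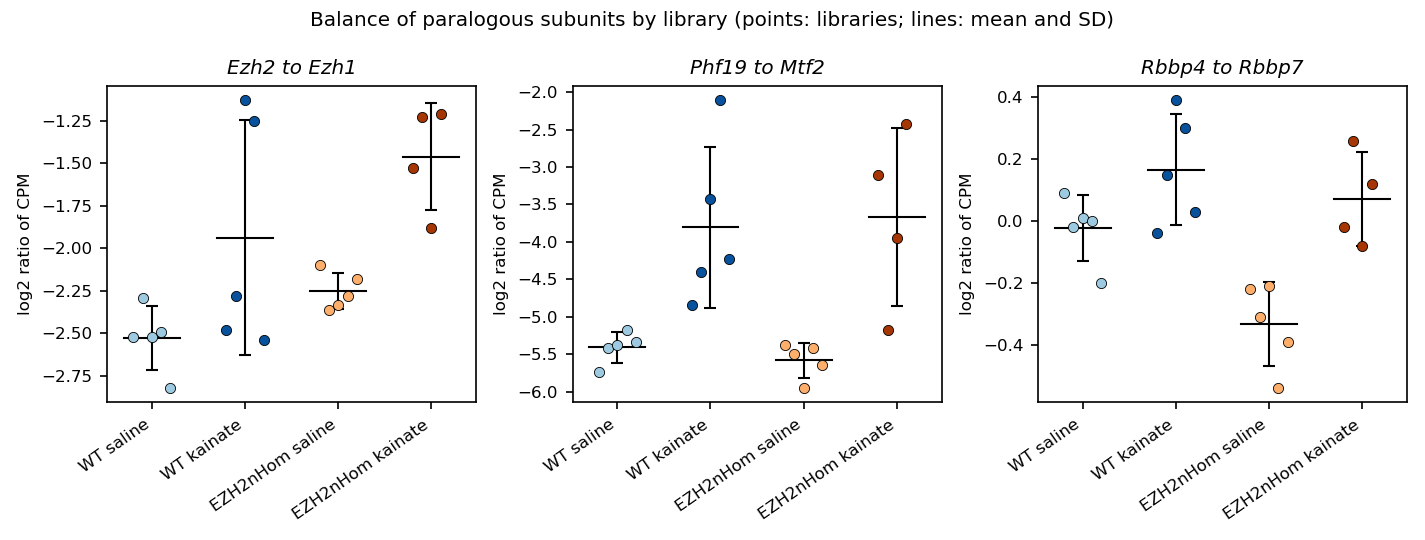
Log2 ratios of paralogous PRC2 subunits within each library. The vertical axis gives the log2 ratio of CPM, each point is 1 library, and the bar and whiskers show the group mean ± SD. The Ezh2 to Ezh1 and Phf19 to Mtf2 ratios were higher after kainate, with WT kainate libraries spread most widely for Ezh2 to Ezh1.

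The other core subunits responded less. Eed, the subunit that reads the mark (ENSMUSG00000030619, chr7:89954654-89980983, minus strand), stood at 10.6, 10.3, 9.57, 9.89 and 10.6 CPM in WT saline and at 9.73, 10.6, 12.6, 14.3 and 10.3 in WT kainate. It stood at 12.4, 9.81, 9.66, 11.4 and 9.78 CPM in EZH2nHom saline and at 11.4, 14.6, 12.8 and 14.4 in EZH2nHom kainate. Again WT kainate replicates 3 and 4 were the high libraries of their group, and the groups overlapped. Averaged over genotypes Eed rose by 0.25 ± 0.08 on the log2 scale (adjusted p = 0.0272 by edgeR). That call was lost without WT kainate replicate 4 (0.21, adjusted p = 0.0553) or EZH2nHom kainate replicate 4 (0.23, adjusted p = 0.0596), and with the replicate number from the sample titles as a block (0.23 ± 0.10, adjusted p = 0.1). The EZH2nHom change of 0.33 ± 0.12 did not pass (adjusted p = 0.0527), but passed under 16 of 29 alternative settings, with adjusted p from 0.0147 to 0.165.

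Suz12, the scaffold (ENSMUSG00000017548, chr11:79993106-80034123, plus strand), passed in no comparison. Its group means were 40.7 ± 2.49 CPM in WT saline, 41.1 ± 3.50 in WT kainate and 45.5 ± 4.22 in EZH2nHom saline (SD, n = 5 each). The EZH2nHom kainate libraries stood at 40.1, 73.7, 39.6 and 39.8 CPM, so that 3 of 4 agreed closely and replicate 2 was far above them. The log2 change in EZH2nHom was 0.08 ± 0.15 (adjusted p = 0.708 by edgeR), and -0.19 ± 0.08 (adjusted p = 0.0787) without that library, a turn in direction of a value that passed in neither case. In WT it was 0.01, and the estimate plus or minus 2 SE ran from -0.26 to 0.29.

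Of the histone-binding pair, Rbbp4 differed between the genotypes after saline without overlap, but not past the threshold. Rbbp4 (ENSMUSG00000057236, chr4:129307100-129335370, minus strand) stood at 116, 107, 108, 109 and 104 CPM in WT saline and at 97.3, 89.7, 91.7, 81.7 and 87.9 CPM in EZH2nHom saline. Every EZH2nHom saline library was thus below every WT saline library. The log2 difference was -0.27 ± 0.11 (adjusted p = 0.122 by edgeR). It passed, at the same -0.27 but with an SE of 0.06, when EZH2nHom kainate replicate 2 was left out (adjusted p = 0.00395), without EZH2nHom kainate replicate 1 (-0.32, adjusted p = 0.0383), and when only the saline groups were fitted (-0.30, adjusted p = 0.000817). The share of structural RNA reads differed between these groups without overlap (above), and with it as a covariate the difference was -0.15 (adjusted p = 0.534).

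After kainate Rbbp4 stood at 103, 110, 121, 118 and 117 CPM in WT and at 87.1, 158, 104 and 97.4 CPM in EZH2nHom. The EZH2nHom groups overlapped, and replicate 2 was the highest of all 19 libraries. The EZH2nHom change of 0.31 ± 0.12 did not pass (adjusted p = 0.0628 by edgeR) and was 0.10 ± 0.07 (adjusted p = 0.324) without replicate 2, although it passed under 13 of 29 alternatives, none of which left out that library. In WT the change was 0.07 ± 0.11 (adjusted p = 0.774).

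Rbbp7 (ENSMUSG00000031353, chrX:162760402-162779092, plus strand), the close paralog of Rbbp4, passed in no comparison over all libraries. It averaged 110 ± 4.84 CPM in WT saline, 101 ± 8.82 in WT kainate and 113 ± 4.63 in EZH2nHom saline (SD, n = 5 each), and stood at 88.4, 132, 110 and 89.4 CPM in EZH2nHom kainate. Without replicate 2 the EZH2nHom change went from -0.11 ± 0.10 (adjusted p = 0.448 by edgeR) to -0.24 ± 0.08, which passed (adjusted p = 0.0301). The log2 ratio of Rbbp4 to Rbbp7 was lower in every EZH2nHom saline library (mean -0.33 ± 0.14 SD, n = 5) than in every WT saline library (-0.02 ± 0.11, n = 5). That separation was narrow, with the highest EZH2nHom saline ratio at -0.21 and the lowest WT saline ratio at -0.20. The ratio was higher in every EZH2nHom kainate library (0.07 ± 0.15, n = 4) than in EZH2nHom saline. In WT kainate it averaged 0.17 ± 0.18 (n = 5), which overlapped both WT saline and EZH2nHom kainate. Replicate 2 had the highest ratio of its group, 0.26, and leaving out any 1 library kept the direction of the EZH2nHom kainate response and of the saline genotype difference.

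Jarid2 and Aebp2, the accessory pair of the other PRC2 form, passed in no comparison over all 19 libraries. Jarid2 (ENSMUSG00000038518, chr13:44729474-44921643, plus strand), which helps bring PRC2 to its targets, averaged 28.4 ± 1.84, 29.6 ± 1.86 and 30.6 ± 2.93 CPM in WT saline, WT kainate and EZH2nHom saline (SD, n = 5 each) and 29.7 ± 2.26 in EZH2nHom kainate (n = 4). Its kainate change on the log2 scale was 0.06 in WT, where the estimate plus or minus 2 SE ran from -0.10 to 0.22, and -0.05 in EZH2nHom, where it ran from -0.22 to 0.12. Aebp2 (ENSMUSG00000030232, chr6:140622663-140678472, plus strand), a zinc finger cofactor that stimulates the enzyme, averaged 59.1 ± 3.63, 54.9 ± 4.91 and 54.8 ± 1.93 CPM in the same 3 groups and 52.4 ± 7.29 in EZH2nHom kainate. Its estimates plus or minus 2 SE ran from -0.27 to 0.06 in WT and from -0.24 to 0.11 in EZH2nHom.

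Phf19 showed the largest response of the 10 genes, from the lowest level. Phf19 (ENSMUSG00000026873, chr2:34893757-34914026, minus strand), a Polycomb-like protein that recruits PRC2 to chromatin, stood at 0.709, 0.948, 0.929, 1.02 and 0.968 CPM in WT saline and at 1.34, 1.72, 2.98, 6.08 and 1.76 CPM in WT kainate. In EZH2nHom saline it stood at 1.19, 1.16, 0.77, 1.06 and 0.951 CPM and in EZH2nHom kainate at 4.32, 1.47, 2.49 and 5.68. No kainate library overlapped the saline libraries of its genotype, and the kainate libraries differed several-fold among themselves. These levels rest on 22 to 44 reads per saline library and on 40 to 194 per kainate library, so counting error is larger here than for any other member. Phf19 rose by 1.58 ± 0.39 on the log2 scale in WT (adjusted p = 0.0103 by edgeR) and by 1.77 ± 0.40 in EZH2nHom (adjusted p = 0.00297). The difference of the responses was 0.18 ± 0.55 (adjusted p = 0.934). The WT rise had an adjusted p under 0.05 in 29 of 30 alternatives, with changes of 1.08 to 1.74 over all of them. The alternative with a threshold of 0.01 is among the 29, and at that threshold the rise did not pass (adjusted p = 0.0103 by edgeR). Nor did the WT rise pass among the 2 WT saline and 4 WT kainate libraries with a shared code prefix, with the prefix as a block (1.26 ± 0.69, adjusted p = 0.503 by edgeR).

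The highest Phf19 values were in WT kainate replicate 4 and EZH2nHom kainate replicate 4, which also had the highest summed CPM of 33 proliferation genes (869.3 and 939.1) and of 10 microglia markers (2438.3 and 2493.7). The proliferation sum was 207.1 to 222.5 CPM in WT saline, 324.4 to 869.3 in WT kainate, 231.0 to 274.4 in EZH2nHom saline and 427.2 to 939.1 in EZH2nHom kainate. In the kainate response 28 of the 33 proliferation genes rose and 0 fell in each genotype. Of the 10 microglia markers 10 rose in WT and 9 in EZH2nHom, with sums of 415.6 to 466.3 CPM in WT saline, 792.5 to 2438.3 in WT kainate, 355.8 to 401.4 in EZH2nHom saline and 1241.1 to 2493.7 in EZH2nHom kainate. None of the proliferation genes or microglia markers was at 0 in a group. Of 10 leukocyte markers 6 passed the filter on low counts, which a marker can pass through the kainate libraries alone. In each saline group 1 of the 10 had no read. Of the 6 tested, 3 rose in WT and 4 in EZH2nHom, counts that this filter favours. Their sums ran from 5.08 to 14.00 CPM over the saline and from 19.07 to 97.65 over the kainate libraries. EZH2nHom kainate replicate 2 had the lowest proliferation and microglia sums of its group (427.2 and 1241.1 CPM). It had the lowest Phf19 of that group (1.47 CPM) but the highest Ezh2 and Eed (19.6 and 14.6 CPM). The part of dividing cells, microglia and leukocytes in the rise of Phf19, Ezh2 and Eed was not tested.

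In the averaged kainate response Mtf2, the Polycomb-like subunit with the higher level, fell where Phf19 rose. It was also the 1 member to pass between genotypes averaged over treatments. Mtf2 (ENSMUSG00000029267, chr5:108065674-108109004, plus strand) stood at 37.9, 40.5, 38.4, 36.7 and 38.8 CPM in WT saline and at 38.5, 36.2, 32.1, 26.3 and 33.1 CPM in WT kainate. In EZH2nHom saline it stood at 49.1, 52.5, 47.5, 45.6 and 47.7 CPM, and in EZH2nHom kainate at 37.0, 53.1, 38.5 and 30.7. Every EZH2nHom saline library was above every WT saline library, and in EZH2nHom kainate all but replicate 2 were below the saline libraries. Averaged over treatments Mtf2 was 0.30 ± 0.08 higher in EZH2nHom on the log2 scale (adjusted p = 0.0157 by edgeR), a call lost without WT saline replicate 4 (0.26, adjusted p = 0.0518). After saline alone the difference was 0.33 ± 0.12 (adjusted p = 0.0618). It passed under 6 of 29 alternatives. Among them were a fit of the saline groups alone (0.31, adjusted p = 0.000755 by edgeR) and the fit without EZH2nHom kainate replicate 2 (0.33 ± 0.08, adjusted p = 0.00826). Another was the fit with the structural RNA share as a covariate (0.53, adjusted p = 0.011). That share differed between the saline groups without overlap (above), so this last fit cannot separate it well from genotype.

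Averaged over genotypes Mtf2 fell by 0.25 ± 0.08 after kainate on the log2 scale (adjusted p = 0.03 by edgeR). This fall depended on single libraries: it was not called without any 1 of the 5 WT saline libraries, WT kainate replicates 3 or 4, EZH2nHom saline replicate 2, or EZH2nHom kainate replicates 1 or 4 (changes of -0.24 to -0.20, adjusted p from 0.0534 to 0.079). It was -0.33 ± 0.07 (adjusted p = 0.00058) without EZH2nHom kainate replicate 2. Within EZH2nHom it went from -0.29 ± 0.12 (adjusted p = 0.0947) to -0.46 ± 0.10 (adjusted p = 0.00219) without the latter. The log2 ratio of Phf19 to Mtf2 averaged -5.40 ± 0.21 (SD, n = 5) in WT saline and -3.80 ± 1.08 (n = 5) in WT kainate, and -5.58 ± 0.23 (n = 5) and -3.66 ± 1.18 (n = 4) in EZH2nHom. In each genotype every kainate library was above every saline library.

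Markers of neurons, in which Ezh1 is expressed, were lower in some kainate libraries. The 12 neuron markers summed to 5635.7 to 6128.9 CPM in WT saline, 4227.8 to 6231.4 in WT kainate, 6195.4 to 6855.0 in EZH2nHom saline and 4244.6 to 5713.5 in EZH2nHom kainate. Of them 3 fell in WT and 6 in EZH2nHom, and 0 rose. WT kainate replicate 4 had the lowest neuron sum of all libraries, and the lowest Mtf2 (26.3 CPM). The lowest Ezh1 (43.2 CPM) was in WT kainate replicate 3, whose neuron sum was 5055.6 CPM. EZH2nHom kainate replicate 2 had the highest neuron sum of its group (5713.5 CPM), with Ezh1 at 45.9 CPM. Of 9 astrocyte markers 5 rose and 0 fell in each genotype. Of 8 oligodendrocyte markers 1 rose in WT and 4 fell in EZH2nHom. Of 6 oligodendrocyte precursor markers 1 rose and 1 fell in WT and 0 passed in EZH2nHom. Of 6 neurogenesis markers 0 passed in WT and 2 fell in EZH2nHom. Of 6 endothelial and 5 choroid plexus markers 0 passed in either response, and 5 of 5 red cell markers rose in WT and 0 in EZH2nHom. The part of these cells in the fall of Ezh1 and Mtf2 was not tested.

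Within groups, single libraries stood out for several of the genes at once. WT kainate replicates 3 and 4 were together high for Ezh2, Eed and Phf19 and low for Ezh1 and Mtf2. EZH2nHom kainate replicate 2 was the highest of all 19 libraries for Eed, Suz12, Rbbp4, Rbbp7, Jarid2 and Mtf2 and the next highest for Aebp2. Its Phf19 value of 1.47 CPM was the lowest of its group, and its Ezh2 value of 19.6 CPM the highest. Its 29778706 reads were the fewest of its group, and its proliferation sum (427.2 CPM), microglia sum (1241.1 CPM) and oligodendrocyte sum (3808.5 CPM) were the lowest of its group. Without it, the averaged kainate response also held falls of Rbbp7 (-0.18, adjusted p = 0.0115 by edgeR) and Aebp2 (-0.14, adjusted p = 0.0307), and the averaged genotype difference held Rbbp4 (-0.26, adjusted p = 0.000596) and Aebp2 (-0.14, adjusted p = 0.0419).

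**Figure D4:**
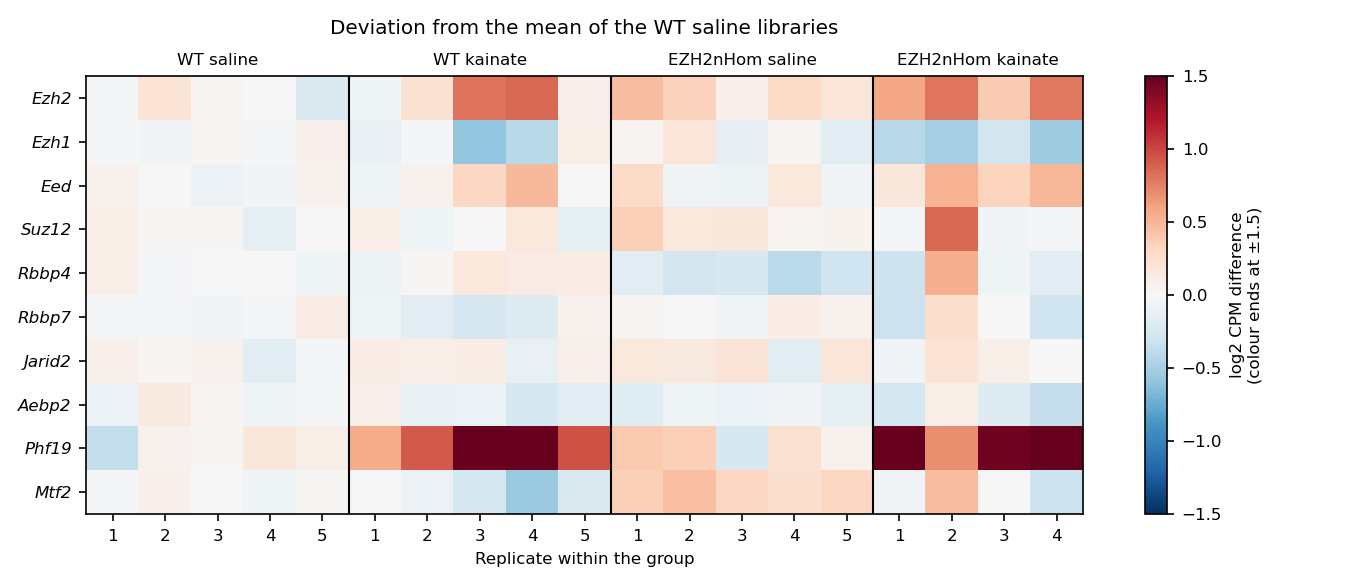
Level of each PRC2 gene in each library relative to its WT saline mean. Colour gives log2 CPM minus its mean over the 5 WT saline libraries and is capped at 1.5 in either direction, with rows as genes and columns as the 19 libraries in their groups. Phf19 is high across the kainate columns, and the column of EZH2nHom kainate replicate 2 is high for Suz12, Rbbp4 and Mtf2 (73.7, 158 and 53.1 CPM).

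Among 5 further PRC2 cofactors (Phf1, Epop, Ezhip, Lcor and Lcorl) none passed within a genotype by edgeR, with Lcorl, Epop and Ezhip under an unadjusted p of 0.05 in WT and Phf1 and Epop in EZH2nHom. In the averaged kainate response 3 of 5 fell and 0 rose, beside 14.4% of all genes that fell and 17.7% that rose. Epop, which links PRC2 to elongin, fell by 0.80 ± 0.20 on the log2 scale (adjusted p = 0.00496 by edgeR). Phf1, the third Polycomb-like protein beside Phf19 and Mtf2, fell by 0.29 ± 0.10 (adjusted p = 0.0251), and Lcorl by 0.16 ± 0.06 (adjusted p = 0.0443). Of the Polycomb-like genes, Phf19 rose in the averaged response while Phf1 and Mtf2 fell. Neither fall passed within a genotype, and that of Mtf2 depended on single libraries.

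Of 5 enzymes that remove methyl groups from the PRC2 target residue or acetylate it, 0 passed in the WT kainate response. Among the 5 is Uty, a Y-linked gene. Its values follow the mix of sexes (WT change -0.06 ± 1.36), so its tests say little. In EZH2nHom 1 of 5 rose, beside 14.3% of all genes: the demethylase Kdm6b, by 0.61 ± 0.20 (adjusted p = 0.0277 by edgeR). After saline 2 of 5 were lower in EZH2nHom, beside 13.5% of all genes that differed. These were Kdm6b (-0.59 ± 0.19, adjusted p = 0.0418) and the acetyltransferase Ep300 (-0.34 ± 0.11, adjusted p = 0.0485). Both Kdm6b calls use the same EZH2nHom saline libraries. Its WT kainate change was 0.01 ± 0.18 (adjusted p = 0.978 by edgeR). The difference of the Kdm6b responses, 0.60 ± 0.27, did not pass (adjusted p = 0.561), so a genotype-specific rise was not shown. Of 18 core subunits of PRC1, a second Polycomb complex, 1 fell in WT after kainate, beside 2.57% of all genes: Pcgf6 (-0.37, adjusted p = 0.0117 by edgeR). In EZH2nHom 0 of 18 passed, and the difference of the Pcgf6 responses did not pass (0.17 ± 0.13, adjusted p = 0.713). After saline 2 of 18 were lower in EZH2nHom, Cbx6 (-0.50, adjusted p = 0.00779) and Phc3 (-0.37, adjusted p = 0.00969). Another 1 was higher, Pcgf3 (0.23, adjusted p = 0.0399), beside 13.5% of all genes that differed. After kainate 1 was lower, Phc3 (-0.33, adjusted p = 0.0419), and 1 higher, Pcgf6 (0.39, adjusted p = 0.021), beside 7.61% of all genes. These genotype shares are near the background, so the number of PRC1 genes that differed was not a result about that complex.

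Rbbp4 and Rbbp7 also serve in chromatin assembly and deacetylase complexes, and 15 genes of those complexes were examined. After kainate 2 of 15 rose and 0 fell in WT, beside 9.47% and 2.57% of all genes, and 6 rose and 3 fell in EZH2nHom, beside 14.3% and 11.8%. Their median log2 change was 0.09 in WT and 0.24 in EZH2nHom, against -0.02 for all genes in each. Chaf1b, a subunit of the chromatin assembly factor that acts behind the replication fork, rose by 2.07 ± 0.33 on the log2 scale in WT (adjusted p = 0.00041 by edgeR) and by 2.09 ± 0.33 in EZH2nHom (adjusted p = 0.000151). Its partner Chaf1a rose by 0.50 ± 0.15 and 0.68 ± 0.15 (adjusted p = 0.0316 and 0.00292). The deacetylase Hdac2 (-0.31, adjusted p = 0.00488) and the corepressor Sin3b (-0.24, adjusted p = 0.00904) fell in EZH2nHom. The difference of the responses did not pass for Hdac2 (-0.33, adjusted p = 0.446) or Sin3b (-0.20, adjusted p = 0.561). Between genotypes Hdac2 was higher in EZH2nHom after saline, by 0.70 ± 0.07 (adjusted p = 4.27e-06), and after kainate, by 0.38 ± 0.07 (adjusted p = 0.00684). After saline Sin3a was higher (0.36, adjusted p = 0.00204) and Mbd3 lower (-0.29, adjusted p = 0.0482), and after kainate Mbd2 (0.62, adjusted p = 0.0219) and Mta2 (0.44, adjusted p = 0.027) were higher. In all, 2 of 15 were higher and 1 lower after saline, beside 13.5% of all genes that differed. After kainate 3 of 15 were higher and 0 lower, beside 7.61%.

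The genes whose levels moved most like a member were ranked by Pearson's r over deviations from the group means in 19 libraries, among 13660 genes. These r values describe libraries that share their cell mix and depth, and carry no test. For Phf19 the leading genes were Slc16a10 (r = 0.97), Cep192 (0.96), Trem2 (0.96), Ect2 (0.95) and Epsti1 (0.95). Slc16a10, at the top of the order, did not pass after kainate by edgeR. Its WT change was 0.52 ± 0.25 (adjusted p = 0.199), and its EZH2nHom change was 0.55 ± 0.26 (adjusted p = 0.126). Trem2, a microglial receptor, rose by 2.07 ± 0.30 in WT (adjusted p = 0.000247 by edgeR), and Ect2, which acts in cell division, by 2.30 ± 0.38 (adjusted p = 0.000523). For Ezh2 they were Fas, Cd68, Ang and Nup205 (r = 0.92 each) and Cd109 (0.91). Cd68, a lysosomal protein of phagocytes, rose by 2.61 ± 0.41 in WT (adjusted p = 0.000429), while Nup205, a nuclear pore subunit, did not pass in WT (0.19 ± 0.08, adjusted p = 0.153) or EZH2nHom (0.05 ± 0.09, adjusted p = 0.735). For Ezh1 they were Tanc1 (r = 0.92), Tekt5 and C1ql2 (0.91), and Grik4 and Mtmr12 (0.90). C1ql2, which encodes a synaptic protein, and Grik4, a kainate receptor subunit, did not pass in WT (-0.33 ± 0.30, adjusted p = 0.546, and -0.16 ± 0.14, adjusted p = 0.517).

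The authors' deposited table holds 1 p-value per gene, which matched a chi-square statistic with 3 degrees of freedom for 28839 of 28839 genes with a positive statistic (within 0.01 log10 units), as a joint test over 4 groups gives. By the authors' deposited adjusted p, given beside each name, 6 of 10 members of the authors' deposited table were under 0.05, beside 40.5% of the 23334 genes with an adjusted p in the authors' deposited table: Phf19 (8.8e-07), Mtf2 (0.00132), Ezh1 (0.00459), Ezh2 (0.00898), Eed (0.0266) and Rbbp4 (0.0398). A joint test of the same kind in edgeR, added after the data had been seen, passed 4 of 10, beside 43.0% of all genes: Phf19 (adjusted p = 0.000792), Mtf2 (0.00643), Ezh1 (0.0137) and Ezh2 (0.0238). Eed (0.0542) and Rbbp4 (0.0687) did not pass in edgeR's joint test. A joint test does not say which groups differ.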

How the data were processed

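RNA-seq read counts were analysed for 19 libraries in 4 groups taken from the labels. The deposited count table holds whole-number counts per Ensembl gene for 55416 genes. Per the submitters' processing notes the build was mm39 and the tools were DESeq2 and DESeq, with no versions, and the aligner, counting program and strand setting are not given in the sources used here. A second deposited table holds normalised signal, made by the authors by dividing counts by a size factor per library, with a log2 fold change, a test score (the statistic), a p-value and an adjusted p-value, per the file headers. It was used for symbols and for the authors' joint test only. A further deposited table was not used. How reads shared by similar genes, such as Rbbp4 and Rbbp7, were assigned is not stated.

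The tests ran in edgeR 4.0.16 and, as an alternative, DESeq2 1.42.0, under R 4.3.3. The filter filterByExpr left 19234 genes, TMM factors scaled libraries, and 1 quasi-likelihood model held all libraries, with 4 group means. All tests were two-sided and used Benjamini-Hochberg adjustment, with 0.05 as the threshold. Levels per kilobase used exon lengths of GENCODE vM21 (GRCm38). Genes most alike used log2 CPM with a prior count of 2 and a mean of at least 1 CPM.

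Members, gene lists and tests were chosen with earlier results of these data known. Members that passed anywhere, Ezh2 and Ezh1 are given in every library, and up to 4 passing genes of each pathway list are named. Beside the rule, Rbbp4, Suz12 and Rbbp7 values are printed because EZH2nHom kainate replicate 2 decides them. The lists were further PRC2 cofactors, enzymes of the target residue, PRC1, Rbbp4 and Rbbp7 partners, proliferation genes, and markers of neurons, astrocytes, microglia, leukocytes, oligodendrocytes, their precursors, endothelium, neurogenesis, choroid plexus and red cells. Alternatives were a threshold of 0.01, other scaling and filters, 2-group fits, a replicate block, covariates for sex-linked and structural RNA reads, DESeq2, and leaving out each library.

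The labels do not state a pairing, and the replicate numbers were used as a block only as an alternative. WT saline and kainate libraries with the same number had correlated deviations (0.221 to 0.571). For numbers 1 and 4, however, the WT saline library correlated more with a kainate library of another number. Same-numbered saline libraries of the different genotypes reached 0.565, so these correlations do not show that the numbers mark pairs. The titles number the EZH2nHom kainate libraries 1 to 4, but the deposited count columns number the same libraries 2 to 5. The title numbers are used, so the matching in EZH2nHom may be off, and a block with the column numbers was added after the data had been seen.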

Additional observations from a re-analysis of the deposited data

Results flagged for a closer look

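Of 40 sets of library values (10 genes in 4 groups), 4 held a library that stood apart from the others of its group by Dixon's criterion, which chance meets in about 1 in 20 sets. Suz12 in EZH2nHom kainate replicate 2 was 73.7 CPM, against 39.6 to 40.1 CPM in the others. Rbbp7 in WT saline replicate 5 was 119 CPM (118.8), against 107.2 to 108.7. Jarid2 was low in WT kainate replicate 4, at 26.4 CPM against 29.8 to 30.8, and in EZH2nHom saline replicate 4, at 25.5 CPM against 31.1 to 32.6.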

How the results depend on the processing

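Of 2010 log2 changes of members under alternatives, 1939 stayed on the same side of the threshold, 51 newly passed, 20 no longer passed and 0 that had been called reversed. The number of members that passed moved as follows. No share of all genes stands beside each count, so these counts are not results about the complex. At an adjusted p under 0.01 it was 0 in the WT response, 2 in the averaged kainate response, 0 in the averaged genotype difference and 2 in the joint test. In the EZH2nHom response it was 4 with DESeq2 size factors, with the sex-linked covariate, with the structural RNA covariate and by DESeq2's Wald test. After saline, between genotypes, it was 2 when only those groups were fitted and 1 with the structural RNA covariate. With the replicate block it was 1 after saline (Mtf2, 0.33 ± 0.08, adjusted p = 0.0217 by edgeR) and Eed was lost from the averaged kainate response (adjusted p = 0.1), and the block changed no other member call. With the column numbers in place of the title numbers as the replicate block, every member call stayed, Eed included (0.27 ± 0.09, adjusted p = 0.0472 by edgeR). Among WT libraries with a shared code prefix, with the prefix as a block, 0 passed in the WT response, Phf19 included (2 saline and 4 kainate libraries). Outside WT, same-numbered libraries did not all deviate together (correlations down to -0.062, and with the column numbers down to -0.351). There too the block rests on the replicate numbers alone.

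Leaving out each library in turn gave 1 to 2 members in the WT response and 2 to 5 in EZH2nHom. Between genotypes after saline it gave 0 to 2. It gave 3 to 7 in the averaged kainate response and 0 to 3 in the averaged genotype difference. In the joint test it gave 3 to 7. The calls over all genes moved as well, so these member counts alone are not results about the complex. The number of genes called overall moved with single libraries: in WT (2316 with all) it was 1518, 1401 and 1365 without WT saline replicate 2 or WT kainate replicates 3 or 4, after saline (2596) 1675 without WT saline replicate 3 and 4295 without EZH2nHom kainate replicate 2, and after kainate (1463) 706, 670 and 947 without WT kainate replicates 1, 2 or 5. Between genotypes after kainate, a fit of those groups alone called 4, no filter 959, the block 735 (200 with the column numbers) and DESeq2 2214. Fits of the compared groups alone called 5604 after saline and 3066 in EZH2nHom (5012). At 0.01 the counts were 1083 in WT, 2815 in EZH2nHom, 1212 and 284 between genotypes after saline and kainate, 3969 and 2318 in the averages and 5206 in the joint test. The prefix block called 0, and the difference of responses held 0 genes by edgeR, 12 by DESeq2, 1 with the block and up to 4 without 1 library. Read depth limits Phf19 most, at 22 reads in the lowest library.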
